A study of Macaca mulatta and Mus musculus and Rattus norvegicus with 12 samples.

Results

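The HOXD cluster holds 9 genes in mammals, HOXD1, HOXD3, HOXD4 and HOXD8 to HOXD13, and the reads of these 9 genes were compared between skull and shin bone in mouse, rat and rhesus macaque. A gene was taken as a member where the symbol that opens its description in the count table of a species, in capitals, was one of these 9 names. In the mouse table all 9 members had a row, of 38599 gene symbols, and 7 of them had at least 1 read. In the rat table a row was present for 7 members, of 35259 symbols, and 3 had a read, while no row carried the symbol HOXD8 or HOXD11. In the macaque table only HOXD1 and HOXD10 had a row, of 28641 symbols, and both had reads. Of the other 7 members, HOXD12 and HOXD13 are matched by RefSeq number to rows that carry a LOC number in place of a symbol (LOC100428778 and LOC703825), which fall outside the rule and held 0 reads in all 6 libraries. The remaining 5 had no row and count as absent, so the macaque reads stand under 2 of the 9 symbols.

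Bone enriched for osteocytes, the cells buried in the mineral, was taken from calvaria, the roof of the skull, and from tibia, and its poly(A) RNA was sequenced. No group was treated or genetically altered. The mouse libraries (2 of calvaria, named M4 and M8, and 2 of tibia, M5 and M7) came from C57BL6 females aged 4 months, and each was a pool of several mice. The rat libraries (1 of calvaria, R1, and 1 of tibia, R3) came from Wistar females aged 6 months and were also pools. The macaque libraries (3 of calvaria, G1, G3 and T1, and 3 of tibia, G2, G4 and T2) each came from 1 female aged 4 to 6, in months on the labels. The methods of the study give that macaque age in years. The methods also say that skull and tibia were taken from the same animals, but the labels do not name the pairs, so sites were compared without pairing. For pooled mice, p-values measure the spread between pools.

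HOX genes encode homeodomain transcription factors that give cells along the body axis and the limb their positional identity, and mammals carry them in 4 clusters named HOXA to HOXD. Within a cluster the genes lie in the order in which they are used: low-numbered genes act early and towards the head, and high-numbered genes act late and towards the tail. In the growing limb the HOXD cluster is known for a wave of activity in which HOXD9 to HOXD11 act in the upper and middle limb, and HOXD13 with HOXD12 in the digits. Much of the front of the skull roof forms from cranial neural crest, which is free of HOX expression in front of the hindbrain.

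In mouse (GENCODE vM21 models, build GRCm38, the build that mm10 names) the cluster lies on the plus strand at chr2:74668310-74765142, from the start of Hoxd13 to the end of Hoxd1. The members share the homeobox, the stretch of 180 coding bases that encodes the DNA-binding domain. The last 60 bases of this stretch, which code for the DNA-contacting helix and the end of the domain, are shown for Hoxd8, which held most of the mouse reads, and Hoxd10, which was read in all 3 species. Capitals mark the bases that differ from Hoxd8. Both stretches are exonic and coding.
Hoxd8, chr2:74706645-74706704: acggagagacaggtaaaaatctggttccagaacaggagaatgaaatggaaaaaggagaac
Hoxd10, chr2:74694261-74694320: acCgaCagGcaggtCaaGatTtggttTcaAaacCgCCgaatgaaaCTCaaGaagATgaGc
Over the whole homeobox, Hoxd10 matched Hoxd8 at 58.3% of the bases, and within the 60 bases shown it differed at 18. Across complete transcripts, the longest run of bases that Hoxd8 shared with a gene whose exons it does not overlap was 32 bases, with Hoxb8. For the members in all, such runs spanned 26 to 116 bases, the longest between Hoxd11 and Gabra2, so none was as long as a read of 125 bases.

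Overlap between neighbouring genes was larger. In the GENCODE models, 62.8% of the exon bases of Hoxd3 also belonged to exons of other genes, among them Hoxd4 and the antisense transcript Hoxd3os1. For Hoxd4 the share was 52.3%. For Hoxd11 it was 10.8% and for Hoxd10 5.7%, and the remaining members had none. Reads were counted without regard to strand, so reads of Hoxd3 and its antisense partner cannot be told apart there, and the counts of Hoxd3 and Hoxd4 are uncertain where their exons overlap. The mouse Hoxd10 row of the deposited table spans 10753 bases, against 3182 in GENCODE, and its position is not given in the table. The deposited Hoxd3 row holds 2902 exon bases against 4191 in GENCODE, and the Hoxd4 row 2560 against 2948. The overlap shares above may therefore differ for the models on which the reads were counted.

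The libraries held 13934813 to 16826535 reads on named genes in mouse, 12233256 and 14255423 in rat, and 7951585 to 10342459 in macaque. A site with 0 reads of a gene was given a floor of 3 reads over its libraries, which is 0.104 CPM (reads scaled to a common library size) for mouse calvaria, 0.122 for macaque calvaria and 0.210 for rat calvaria. Intervals and floors cover counting error only. Osteocyte markers were present in every library, as the label requires. Their summed level was 1248 and 2095 CPM in mouse calvaria against 7935 and 10730 in mouse tibia, and 5179 to 6033 against 8113 to 17840 in macaque, so every tibia library was above every calvaria library. In rat the sum was 544.5 in calvaria and 7274 in tibia, with FGF23 and DKK1 at 0 reads and SOST, the osteocyte marker sclerostin, at 5 and 15 reads. The paper, by contrast, lists rat DKK1 as present in both sites and higher in tibia. Why the counts used here hold no DKK1 reads was not settled.

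Of the mouse members, HOXD8, a gene of the middle of the cluster used in the trunk, gave most of the reads. The calvaria libraries held 34 reads (M4) and 6 reads (M8), and the tibia libraries 169 (M5) and 146 (M7). Both tibia libraries lay above both calvaria libraries. After scaling by the trimmed mean of M values (TMM), calvaria had 1.32 ± 1.22 CPM (SD, n = 2) and tibia 9.77 ± 0.309 CPM (SD, n = 2). The log2 fold change of calvaria over tibia was −2.86 (SE 0.585), with an adjusted p of 0.0347 by edgeR's quasi-likelihood test, so HOXD8 was called at the thresholds of the study (false discovery rate under 0.2 and fold change over 1.1). The summed reads were 7.01-fold higher in tibia (95% interval 5.03 to 10.0). The call was lost when lowly counted genes were left out before the fit, with an adjusted p of 0.439 by edgeR's quasi-likelihood test after its own expression filter and of 0.495 when a read in every library was asked for. In bulk RNA, fewer cells that express a gene and less RNA per cell cannot be told apart.

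The calvaria libraries differed from each other in HOXD8 more than the tibia libraries did. M4 held 2.18 CPM and M8 held 0.457, a ratio of 4.76 (95% interval 1.98 to 13.9), while M5 over M7 gave 0.956 (0.762 to 1.20). The M4 library also held more of the cartilage markers (91.6 CPM against 19.9 in M8), of the adipocyte markers (505 against 196), of the tendon and fibroblast markers (250.2 against 80.1), of the osteoblast markers (24670 against 11060), of the skeletal muscle markers (2247 against 1361) and of the osteocyte markers (2095 against 1248). It also held more of the limb patterning genes in sum (645.4 against 188.5), among them SHOX2, a homeobox gene of the developing limb (74.0 against 3.51). It held less of the marrow markers (84500 against 109300), of the HOXA cluster (5.70 against 10.6), of HOXB (14.3 against 24.9) and of HOXC (0.256 against 0.533). The part of these differences in the HOXD8 value was not tested.

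**Figure D1:**
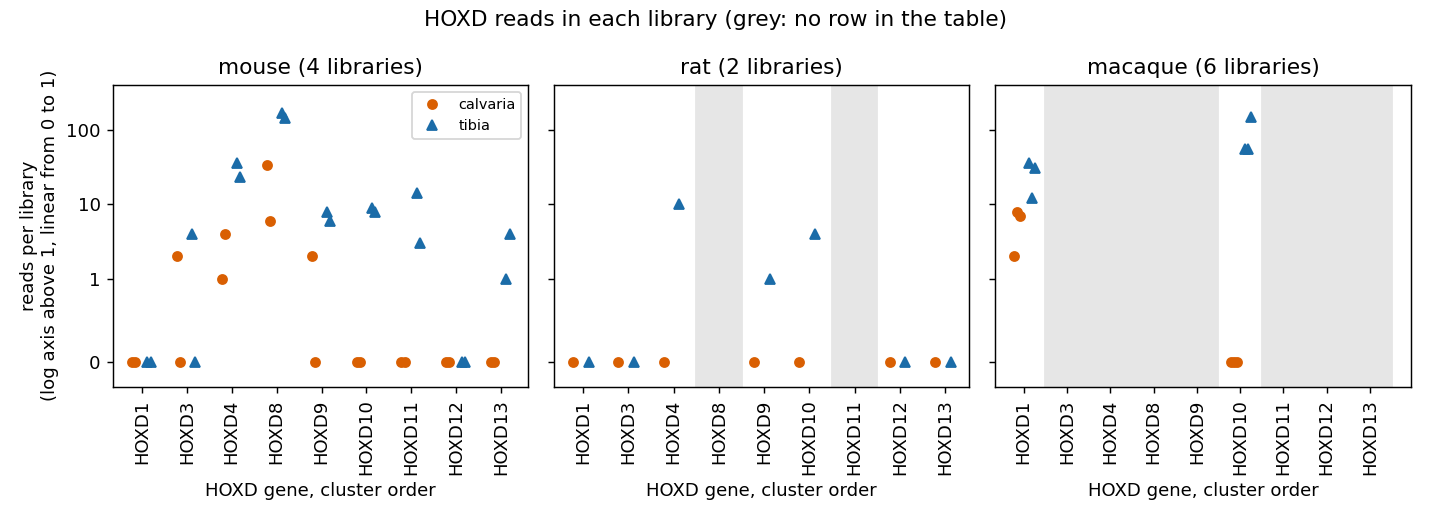
Reads of each HOXD gene in each library (y axis, logarithmic above 1 read and linear from 0 to 1) in mouse, rat and macaque, with circles for calvaria, triangles for tibia and grey where the table has no row. In mouse the tibia points of HOXD8 (169 and 146 reads) stand above all other members, and in macaque HOXD10 has 0 reads in each of 3 calvaria libraries and 55 to 148 in tibia.

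HOXD4, a low-numbered gene that acts in the hindbrain and neck, was the next most read member. Calvaria held 1 read (M4) and 4 reads (M8), and tibia 36 (M5) and 23 (M7). The tibia libraries again lay above both calvaria libraries, at 1.80 ± 0.326 CPM (SD, n = 2) against 0.184 ± 0.170. The log2 fold change was −3.28 (SE 0.990), and HOXD4 just missed the threshold with an adjusted p of 0.217 by edgeR's quasi-likelihood test. The summed reads were 10.5-fold higher in tibia, with a 95% interval of 4.25 to 33.5.

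The high-numbered members, which include the classic limb genes of the cluster, were at or near 0 in mouse calvaria. HOXD9, used in the upper limb, had 2 and 0 reads in calvaria (M4, M8) and 8 and 6 in tibia (M5, M7). Its ratio was 6.23 (95% interval 1.43 to 56.5), and its log2 fold change of −2.54 (SE 1.84) did not pass the test, with an adjusted p of 0.859 by edgeR's quasi-likelihood test. HOXD10, which with its paralogues patterns the hindlimb, had 0 reads in both calvaria libraries and 9 and 8 in tibia. Tibia was at least 5.04-fold higher by the floor, with an adjusted p of 0.493 by the same edgeR test. HOXD11, needed with HOXA11 for the bones of the middle limb, had 0 reads in both calvaria libraries and 14 and 3 in tibia. That gave the same bound of at least 5.04-fold, with an adjusted p of 0.532 by the edgeR test, and the tibia libraries differed from each other 3.86-fold (95% interval 1.08 to 20.9).

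HOXD13, the digit gene at the end of the cluster, had 0 reads in both calvaria libraries and 1 and 4 in tibia, at least 1.48-fold higher, with an adjusted p of 0.860 by edgeR's quasi-likelihood test. HOXD12, its neighbour, had 0 reads in all 4 libraries. At the other end, HOXD3 had 2 and 0 reads in calvaria and 4 and 0 in tibia. These groups overlapped, and the ratio of 1.78 had a 95% interval of 0.255 to 19.7. HOXD1, the lowest-numbered member, had 0 reads in all 4 libraries.

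Thus 1 of the 7 mouse members tested was called higher in tibia and none higher in calvaria. Over all 22339 genes tested, 351 were called higher in tibia, a share of 1.57%. By the weaker criterion that every tibia library lies above every calvaria library, 6 of the 7 members passed (all but HOXD3), against 18.4% of all genes. All 7 fitted log2 fold changes were below 0, with a median of −3.28, or −2.33 when the 3 members silent in calvaria are set at their bounds. Those 3, which are also among the 6 above, had reads in tibia alone. They entered the test through tibia, so their direction was fixed in advance. The median over all genes was 0.05.

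Levels of the members can be compared within a library only per length. Per kilobase of exon, mouse tibia held 3.86 CPM of HOXD8, 0.705 of HOXD4, 0.205 of HOXD9 and 0.195 of HOXD10. HOXD8 exceeded HOXD4, and HOXD4 exceeded HOXD9, in both tibia libraries without overlap, whereas HOXD9 and HOXD10 overlapped. HOXD11 (0.118), HOXD13 (0.0665) and HOXD3 (0.0390) followed, each overlapping the next. In mouse calvaria only HOXD8, at 0.521 per kilobase, did not overlap the other members over the libraries. In M8 this rests on 6 reads of HOXD8 against 4 of HOXD4 (0.181 against 0.119 per kilobase).

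HOXD8 gave 73.1% of the 431 HOXD reads of mouse tibia and 81.6% of the 49 of mouse calvaria. By library its share was 70.1% (M5, Wilson 95% interval 64.1 to 75.6) and 76.8% (M7, 70.4 to 82.3) in tibia, and 87.2% (M4, 73.3 to 94.4) and 60% (M8, 31.3 to 83.2) in calvaria. These intervals overlapped, and the calvaria shares lay on either side of the tibia shares. A shift in the make-up of the cluster between sites was not tested.

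**Figure D2:**
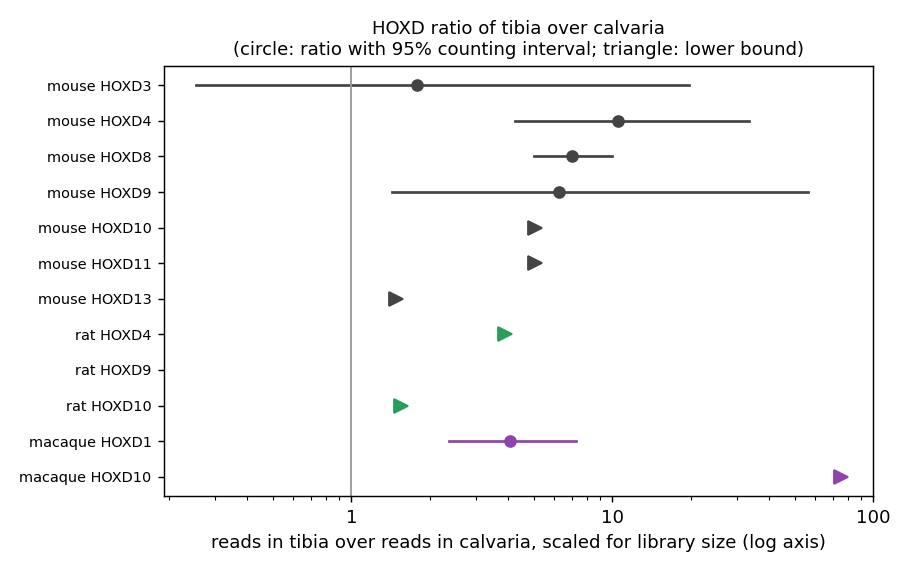
Reads in tibia over reads in calvaria, scaled for library size (x axis, logarithmic), for each HOXD gene with reads. Circles are ratios with a 95% counting interval and triangles are lower bounds where calvaria held 0 reads, which shows the HOXD8 ratio of 7.01, the macaque HOXD10 bound of 75.1 and the HOXD3 interval that spans 1, while rat HOXD9, with 1 read in all, has no ratio.

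In macaque both members with a row were called higher in tibia, against 9.43% of the 18894 genes tested. HOXD10 had 0 reads in each of the 3 calvaria libraries, and 56 (G2), 55 (G4) and 148 (T2) reads in tibia. HOXD10 thus entered the test through tibia, so its direction was fixed in advance. The sites did not overlap, and T2 stood above the other tibia libraries, 2.35-fold over G2 (95% interval 1.71 to 3.25). Tibia held 8.92 ± 4.72 CPM (SD, n = 3), at least 75.1-fold more than the floor of calvaria. The adjusted p was 2.11e-09 by edgeR's quasi-likelihood test. The row is described as a hypothetical gene whose RefSeq number is that of HOXD10. It spans 12383 bases with 3186 exon bases, against 3210 and 1848 in the rat table, so its reads may not all be of HOXD10, and the same holds for every macaque HOXD10 value here.

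The macaque HOXD1 row held 2 (G1), 8 (G3) and 7 (T1) reads in calvaria and 36 (G2), 12 (G4) and 31 (T2) in tibia. Every tibia library lay above every calvaria library, as was true of 12.1% of all macaque genes. The means were 0.698 ± 0.403 and 2.77 ± 1.30 CPM (SD, n = 3 each). The log2 fold change of −1.97 (SE 0.698) had an adjusted p of 0.0641 by edgeR's quasi-likelihood test, and the ratio was 4.04 (95% interval 2.37 to 7.28). The call rests on thin data: without G1 the adjusted p by edgeR's quasi-likelihood test was 0.236, and without G2 it was 0.334. The row spans 69247 bases with 9266 exon bases, against 2163 and 1862 in the mouse table, and so cannot be read as HOXD1 alone. In mouse the stretch from the start of Hoxd9 to the end of Hoxd1 spans 67416 bases. Whether the macaque row holds reads of other members was not tested. Mouse HOXD1 had no reads in either site.

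Macaque tibia held 2.80 CPM per kilobase of the HOXD10 row and 0.299 of the HOXD1 row, with no overlap over the 3 libraries. In calvaria the order was the opposite, 0 against 0.0753. Of the 338 HOXD reads of macaque tibia, 76.6% were of HOXD10, while all 17 calvaria reads were of the HOXD1 row.

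In rat, with 1 library for each site, there is no replicate check and no test. HOXD4 had 0 reads in calvaria and 10 in tibia, at least 3.88-fold higher in tibia. HOXD10 had 0 and 4 reads, at least 1.55-fold higher. HOXD9 had 0 and 1 read, for which no fold is given. HOXD1, HOXD3, HOXD12 and HOXD13 had 0 reads in both. With 1 read added, the log2 ratio of calvaria over tibia was −3.68 for HOXD4 and −2.54 for HOXD10. Both were past the threshold of 2 used for rat, as were 8.14% of all 19234 rat genes in this direction. Every rat member with a read had 0 reads in calvaria and so could only point to tibia. The rat HOXD4 row covers 10322 exon bases, against 2560 in mouse, so it cannot be read as HOXD4 alone. The rat libraries also differed in skeletal muscle markers, with 864 CPM in tibia against 7.65 in calvaria, and all 8 of these markers passed the ratio. Cartilage markers were at 5.48 against 0.281. Their part in the HOXD values was not tested.

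Of the marker lists, the summed osteocyte list, given above, and the summed cartilage list were higher in tibia in every species. Of the osteocyte markers, 5 of 8 were called higher in tibia in mouse and 3 of 8 in macaque. In macaque 1 was called higher in calvaria. In rat 4 of 6 passed the ratio towards tibia, against 8.14% of all genes. Mouse endothelium markers were also higher in tibia, at 160.4 and 170.7 against 113.2 and 113.8 CPM, and 2 of 5 were called. So were the mouse neural and meningeal markers, at 209.2 and 254.5 against 143.6 and 150.9 CPM, with 1 of 5 called. The 1 mouse skin marker with reads had 6.84 and 7.01 against 2.36 and 3.71 CPM and was not called. The macaque sums of the endothelium, neural and skin lists overlapped. In rat the neural list was higher in calvaria, at 28.97 against 13.32 CPM. Mouse tibia held 592.5 and 700.8 CPM of 7 cartilage genes against 19.9 and 91.6 in calvaria. Of the 7, 4 were called higher in tibia, against 1.57% of all mouse genes. In macaque the sum over 6 genes was 39.7 to 82.9 against 20.1 to 26.5. There 1 of 5 tested genes was called higher in tibia (HAPLN1, a link protein of cartilage matrix), against 9.43% of all macaque genes. Another 1 was called higher in calvaria (COL2A1, cartilage collagen). The 4 mouse adipocyte markers were all called higher in tibia (1.57% of all mouse genes), at 940.9 and 1084 against 196 and 505 CPM. In macaque, by contrast, 2 of 3 were called higher in calvaria, a direction in which 10.3% of all macaque genes were called. The summed marrow markers were higher in calvaria in every species, and 2 of 7 tested were called higher in calvaria in mouse (0.712% of all genes) and 6 of 6 in macaque, while 0 of 7 passed the ratio in rat (1.55% of all genes). Skeletal muscle markers overlapped between the sites in mouse, at 1361 and 2247 in calvaria and 375.0 and 1990 in tibia, and in macaque were at most 10.7 in any library. The part of these cells in the HOXD values was not tested.

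A test of whether the site difference itself differed between mouse and macaque passed for 566 of 11565 shared genes (4.89%) at a false discovery rate under 0.2. HOXD10 was the member with reads in both species. It had 0 calvaria reads in each, so the difference could not be estimated, and the values stand side by side: at least 5.04-fold higher in mouse tibia and at least 75.1-fold in macaque tibia.

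Transcripts of the cluster that are no members were also compared. MIR10B, the hairpin of the microRNA miR-10b next to HOXD4, was read in macaque through a row of 110 bases. It had 118 (G1), 70 (G3) and 114 (T1) reads in calvaria and 764 (G2), 703 (G4) and 1133 (T2) in tibia, with no overlap. The means were 12.3 ± 3.03 and 91.3 ± 16.3 CPM (SD, n = 3 each), and the log2 fold change of −2.89 (SE 0.229) had an adjusted p of 4.79e-12 by edgeR's quasi-likelihood test. The row is shorter than the reads, so a read counted there reaches beyond it and does not measure the mature microRNA. In mouse, Mir10b lies at chr2:74726070-74726137 inside the Hoxd3 and Hoxd4 models, and its 68 bases had 0 reads in all 4 libraries, as did the rat row. The mouse stretch is shown because the macaque counts fall on its counterpart.
Mir10b, mouse: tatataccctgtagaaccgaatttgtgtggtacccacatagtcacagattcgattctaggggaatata

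The mouse antisense transcript HOXD3OS1 had 4 and 0 reads in calvaria (M4, M8) and 9 and 17 in tibia (M5, M7). Its log2 fold change of −2.57 (SE 1.42) did not pass, with an adjusted p of 0.742 by edgeR's quasi-likelihood test. The genes that flank the cluster showed no called difference. LNP, next to EVX2 and listed as KIAA1715 in macaque, differed on the log2 scale by 0.17 (mouse), 0.33 (rat) and −0.05 (macaque). MTX2, on the other side, had −0.22, 0.25 and −0.17. EVX2, the homeobox gene beside HOXD13, had 0 reads in all 12 libraries.

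Against the other clusters, HOXD was the least read in tibia in mouse and macaque, where only 2 of its genes have a row. In rat its rank depends on rows known only by description. By symbol, rat tibia held 1.23 CPM of HOXD against 5.07 of HOXA, but with such rows added in every cluster it held 9.40 against 9.07, since the row described as Hox-D8-like gave 100 of the 115 reads. In mouse tibia the summed HOXD level was 13 and 13.6 CPM, against 128.1 and 128.6 for HOXA, 38.6 and 42.0 for HOXB and 82.7 and 90.4 for HOXC. In macaque tibia it was 7.65 to 17.4 from 2 rows, against 275.8 to 309.3 for HOXA. In mouse calvaria HOXD, at 0.762 and 2.50, lay below HOXA and HOXB but above HOXC (0.256 and 0.533). HOXD took 5.10% (M5) and 4.81% (M7) of the reads of all 4 clusters in mouse tibia, and 10.96% (M4) and 2.07% (M8) in calvaria. The Wilson 95% intervals of the tibia shares overlapped (4.51 to 5.77 and 4.19 to 5.53), and the calvaria libraries lay on either side of them.

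**Figure D3:**
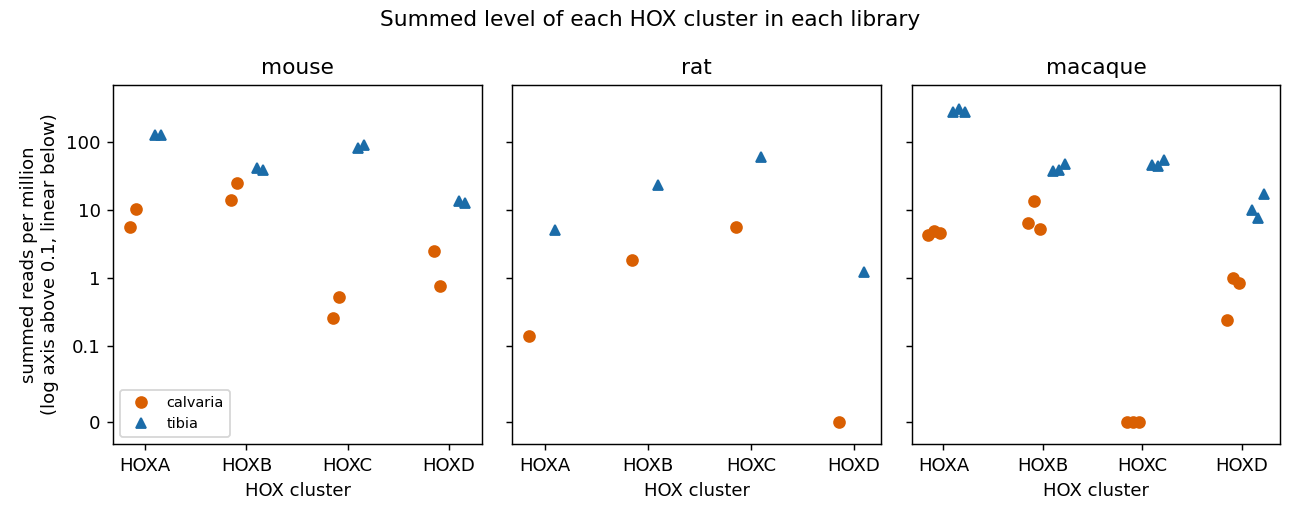
Summed level in CPM of each HOX cluster in each library (y axis, logarithmic above 0.1 and linear below), with circles for calvaria and triangles for tibia. Counted by symbol, HOXD has the lowest triangles in each panel, at 13 and 13.6 in mouse, 7.65 to 17.4 in macaque and 1.23 in rat, where the row described as Hox-D8-like is not included and would lift HOXD above HOXA, and in mouse and macaque every triangle of a cluster stands above its circles.

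Counts of called genes were higher in the other clusters, which also have more reads in tibia by symbol and, except for rat HOXA, more genes tested. In macaque every HOXD gene tested was called, as in HOXB and HOXC. In mouse 6 of 10 HOXA genes tested, 3 of 9 HOXB and 6 of 9 HOXC were called higher in tibia, beside 1 of 7 HOXD. In macaque the counts were 7 of 8, 4 of 4, 3 of 3 and 2 of 2, and in rat 3 of 3, 6 of 7, 5 of 6 and 2 of 3 passed the ratio. Over all genes, the share that went towards tibia was 1.57% in mouse, 9.43% in macaque and 8.14% in rat. No HOX gene of any cluster was called higher in calvaria. Genes with 0 calvaria reads entered through tibia and could only point there, among them all 3 macaque HOXC and all 3 rat HOXD genes tested.

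Paralogues, the genes of equal number in different clusters, were compared per kilobase in tibia. In mouse, HOXD8 at 3.86 ± 0.122 CPM per kilobase (SD, n = 2) was below HOXC8 (9.30 ± 0.809) and above HOXB8 (0.382 ± 0.0576). HOXD9 (0.205) was below HOXC9 (15.7) and HOXA9 (7.18), with HOXB9 near it at 0.229. HOXD10 (0.195) was below HOXA10 (17.04) and HOXC10 (8.29). HOXD11 (0.118 ± 0.0984) was below HOXA11 (5.98 ± 1.39), with HOXC11 near it at 0.1235 ± 0.175. HOXD4 (0.705) was the lowest of its 4 paralogues, below HOXB4 (8.16). In macaque HOXD10 (2.80 ± 1.48, n = 3) was below HOXC10 (8.66 ± 1.31) and HOXA10 (39.0 ± 7.68).

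The site difference of HOXD8 in mouse, a log2 fold change of −2.86, was smaller than that of HOXC8 (−7.63, adjusted p 2.28e-05 by edgeR's quasi-likelihood test), and the difference between these genes was not tested. HOXC8 had 3 reads in mouse calvaria and HOXD8 40.

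**Figure D4:**
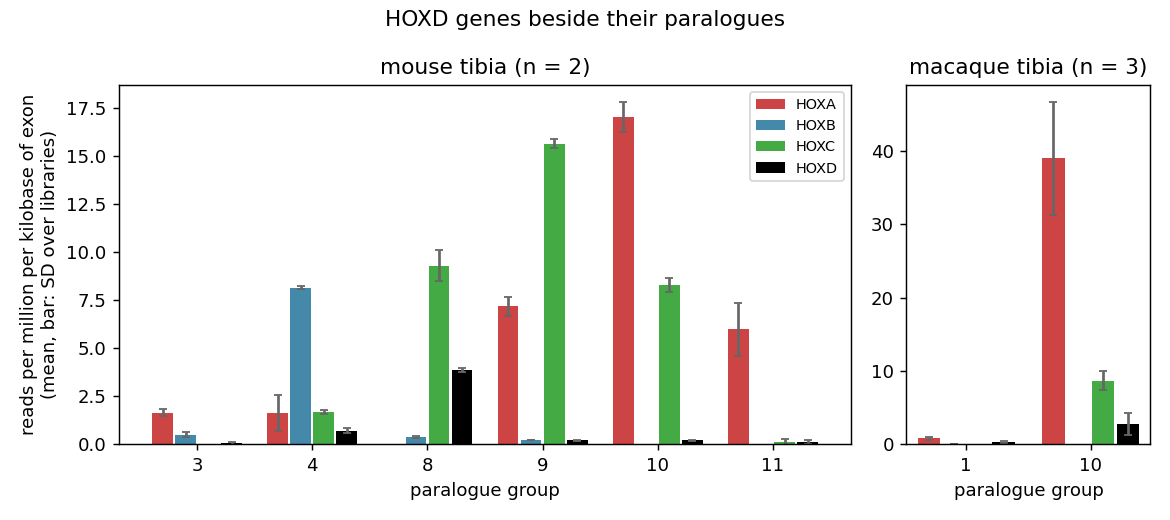
CPM per kilobase of exon in tibia (y axis, bars are means and whiskers the SD over libraries) for paralogues of HOXD genes in mouse (left, n = 2) and macaque (right, n = 3), grouped by gene number with 1 colour per cluster. The black HOXD bars reach 3.86 for HOXD8 in mouse and 2.80 for HOXD10 in macaque and are close to 0 beside HOXA10 (17.04) and HOXC9 (15.7).

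HOX proteins bind DNA together with cofactors. Of those of the PBX, MEIS and PKNOX families, none was called higher in tibia in any species, of 9 tested in mouse, 9 in rat and 8 in macaque. In each species the 1 gene called or past the ratio was MEIS2, higher in calvaria, as were 0.712% of all mouse, 1.55% of all rat and 10.3% of all macaque genes. MEIS2 held 184 and 42 reads in mouse calvaria (M4, M8) against 17 and 18 in tibia (M5, M7), a log2 fold change of 2.77 with an adjusted p of 0.0537 by edgeR's quasi-likelihood test. The macaque value was 1.11 (adjusted p 0.0503 by the same edgeR test), and in rat the log2 ratio was 2.17, from 20 reads and 3 reads.

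Of genes that pattern the limb, 5 of 23 tested in mouse and 13 of 19 in macaque were called higher in tibia, and 10 of 21 in rat passed the ratio. The shares over all genes in that direction were 1.57%, 9.43% and 8.14%. EN1, a homeobox gene of the ventral limb that is also used in the skull, was higher in calvaria in mouse (log2 fold change 4.22) and rat (3.39), and had 0 reads in macaque. Called towards tibia by both the mouse and the macaque fit were PITX1, the factor that marks the hindlimb (0 reads in every calvaria library of both species, and 93 and 59 in mouse tibia), SHOX2 (calvaria over tibia −2.71 in mouse and −1.997 in macaque on the log2 scale) and TBX15 (−1.85 and −2.40), which shapes skull and limb bones. The remaining genes with the smallest p in a species were TBX18 in mouse (−3.54) and TBX3 in macaque (−2.71).

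The genes whose levels ran most like the summed HOXD level over the 10 mouse and macaque libraries, each species centred, were GNAI1, a G protein subunit (Pearson r = 0.993), TNFSF10, the death ligand TRAIL (0.984), BTBD3 (0.973), HOXA10 (0.973) and HOXA7 (0.971), out of 8341 genes. The points share their species and site groups, so this is a description of the site difference together with the spread among libraries.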

How the data were processed

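The deposited tables give raw read counts per gene model for 12 libraries. According to the labels and methods, the authors mapped single-end reads (125 bases) to mm10, rn6 or the MacaM macaque assembly and counted them on merged exons with HTSeq, ignoring strand. For their own tests they dropped genes with 0 reads in any library, a rule not used here since it removes most members. The labels name BWA 0.7.10-r789 as aligner and the methods name HISAT2, and which one made the files was not settled. The 12 columns of normalised values were not used. Rows without a gene name (0.00261% to 0.0663% of reads) were left out, and rows of equal symbol were summed. Of 17111 macaque rows named only by a LOC number, 5937 took a symbol from RefSeq (T2T-MMU8v2.0). The rows that RefSeq would name HOXD12 and HOXD13 were left under their LOC numbers, since membership went by the symbol in the table.

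Within mouse and macaque, calvaria was compared with tibia over all symbols with at least 1 read, by edgeR 4.0.16 (TMM scaling, quasi-likelihood test, Benjamini-Hochberg adjustment), at the thresholds given in the text. Rat ratios used 1 added read and no test. Ratio intervals are exact conditional binomial intervals. All members are named, neighbours where a row exists, cofactors and limb genes if called in both species or among the 3 smallest p, and the 5 most alike genes among those with a mean CPM over 1. The procedure was tested on simulated data. Alternatives included DESeq2 1.42.0 and are given at the end. The members and gene lists were chosen with earlier results of these data known.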

Additional observations from a re-analysis of the deposited data

Results flagged for a closer look

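A rat row outside the membership rule, described as homeobox protein Hox-D8-like, held 9 reads in calvaria and 100 reads in tibia. That is 0.631 and 8.17 CPM, a ratio of 12.95 (95% interval 6.55 to 29.1, counting error only). It drew attention because these reads are in no comparison of the sites and exceed the 3 reads that a count of 0 allows, while no rat row carries the symbol HOXD8. With 1 library per site there is no replicate check. The other rows described as HOXD-like held 0 reads, apart from the rat Hox-D9-like row with 1 read in calvaria and 0 in tibia.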

How the results depend on the processing

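HOXD8 in mouse kept its direction in all 15 alternatives (log2 fold change −4.42 to −2.17) and its call in 13, and macaque HOXD10 kept its call in all 18. HOXD3 turned its direction without M5 and without M8 (0.09), with a range of −3.96 to 3.13 over the libraries left out. HOXD4 was also called by edgeR's exact test (2 mouse members called in all). No mouse member was called with edgeR's expression filter (0 members, 29 genes), with a read in every library (0 members, 14 genes) or over symbols read in all 3 species (0 members, 32 genes). The members left to test there, 2, 2 and 1, all had an unadjusted p under 0.05 by edgeR's quasi-likelihood test. In mouse 295 genes were called with a replicate block for assumed pairs, against 510 without, and 208 at a false discovery rate of 0.05. The block changed no member's call. The labels do not name the pairs. Leaving out 1 library in turn gave 1 to 4 mouse members and 220 to 7470 genes, the most without M4, where the lone calvaria library is assumed to vary like the others. Without M4, HOXD4, HOXD8, HOXD10 and HOXD11 were called, and without M8, HOXD4 and HOXD8. In macaque 1 member (HOXD10) was called at a false discovery rate of 0.05 (1978 genes), and the 1 member left to test with a read in every library or over symbols read in 3 species was called. Leaving out 1 macaque library gave 1 to 2 members and 2301 to 4998 genes, the fewest without G3. A log2 fold change over 1.1 left 1550 macaque genes. Scaling by library size alone moved the macaque median from 0.03 to −0.18 and the genes called higher in tibia from 1781 of 3724 to 3118 of 4499. In rat, 5 added reads left 0 members and 690 genes, a log2 ratio of 1 gave 3 members and 6072 genes, and a read in both libraries left 0 members and 1085 genes. With 0.5 reads added 2661 genes passed. The Hox-D8-like row, added after seeing the data, moved the summed rat tibia level from 1.23 to 9.40 CPM. TMM scaling moved the rat median from −0.29 to −0.0047. The interaction passed for 62 genes at 0.05 and for 49 to 1392 without 1 library. Where no cause is given, the cause was not tested. Depth limits the members with under 20 reads.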

Other observations

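In the mouse table, a row described as a collagen-like gene (LOC102634284) is listed between the rows of HOXD9 and HOXD8. It held 19 (M4) and 5 (M8) reads in calvaria and 91 (M5) and 70 (M7) in tibia, or 1.22, 0.381, 5.14 and 4.79 CPM. Its position is not given in the file. It was picked after its values were seen.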
